A study of Mus musculus with 7 samples.

Results

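Wnt signalling was examined in cultured mouse epicardial cells through 50 genes that encode Wnt ligands, their receptors, the intracellular machinery, antagonists and transcriptional targets. The genes were chosen as a list of symbols, and each symbol matched a single row, so the 50 make up 50 of the 22738 gene rows in the tables. They were divided into 16 canonical genes, which act through beta-catenin, 11 noncanonical genes, 11 genes shared by both branches (8 frizzled receptors and 3 Dvl genes) and 12 antagonists. The explants came from ventricles of E12.5 embryos, set on gelatin for 48 hours and cultured for a further 72 hours once the hearts were taken away. RNA sequencing was done on 4 wild type libraries and 3 Lmnb1-/- libraries, the latter lacking lamin B1, a protein of the nuclear lamina. All animals were on a mixed background of C57BL/6, 129S4Sv/Jae and 129S6/SvEvTac. The labels do not say how the Lmnb1 allele was disrupted or whether embryos were pooled, and no treatment was given. The series asks what lamin B1 contributes to the timing of epicardial cell migration, and the comparison below asks how Wnt pathway transcripts stood in cells without it.

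Wnt proteins are secreted ligands that bind frizzled receptors. In the canonical branch they also engage the Lrp5 and Lrp6 coreceptors, which stops a destruction complex of Axin, Apc and Gsk3b from degrading beta-catenin, so that beta-catenin can activate genes together with TCF and LEF factors. In the noncanonical branches, ligands such as Wnt5a and Wnt11 act through Ror, Ryk and planar cell polarity proteins on the cytoskeleton and on cell movement. Beta-catenin signalling in the epicardium is known to take part in the passage of epicardial cells into the mesenchymal and coronary smooth muscle lineages.

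A short sequence read by TCF and LEF factors, CTTTGAT on either strand (ATCAAAG when read on the other), was looked for in promoter windows of 300 bases, 250 before and 50 after each gene's start. These windows come from RefSeq on GRCm38.p6, a later build than the mm9 named for the count tables, and 35 of the 50 genes had one. The core was found for 2 of the 35, Wnt11 and Wnt5b, both ligands. It stood in 3.73% of all supplied windows and in 2.36% of the windows of tested genes, against 4.35% (2 of 46) of the windows of these genes. The stretches below are the 100 bases just before the start, with the core in capitals. Wnt11 is shown because it had the highest ligand level per kilobase, Wnt5b because it also holds the core, and Axin2 because it is the standard beta-catenin target and its window holds no match.
Wnt11 (chr7:98835012-98835111, + strand): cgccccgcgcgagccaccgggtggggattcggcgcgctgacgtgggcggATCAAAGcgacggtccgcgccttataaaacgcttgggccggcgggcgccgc
Wnt5b (chr6:119449387-119449486, - strand): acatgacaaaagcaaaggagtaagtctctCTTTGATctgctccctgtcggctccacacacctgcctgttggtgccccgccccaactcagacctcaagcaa
Axin2 (chr11:108920249-108920348, + strand): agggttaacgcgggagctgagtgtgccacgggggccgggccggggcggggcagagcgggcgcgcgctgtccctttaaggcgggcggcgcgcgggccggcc
The Wnt11 match begins 51 bases before the start, in 1 of its 2 windows, on the strand opposite to the gene. In Wnt5b the match begins 71 bases before the start, in 1 of its 3 windows, on the gene's own strand. Both genes appear again with the ligands, where neither passed the test, and Axin2 with the feedback genes. A match describes these letters only, and no match says nothing about whether a factor binds elsewhere.

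Library totals ran from 1024898 to 3066936 counts, and wild type replicate 2 was the smallest. Levels are given as CPM, the usual count relative to sequencing depth, with library totals scaled by TMM, and 3 counts were worth 0.965 to 3.10 CPM. Lmnb1 fell from 204 ± 24.6 CPM (SD, n = 4) to 1.49 ± 0.498 CPM (SD, n = 3), which bears out the genotype labels. By Xist and Y-linked counts, 2 wild type libraries (replicates 1 and 3) were female and all others male, so female libraries occur in 1 genotype only. Epicardial and mesothelial markers were present in every library, at a summed 2419 to 3337 CPM in wild type and 2199 to 2526 CPM in Lmnb1-/- explants, and none of the 11 passed the test. Smooth muscle and mural markers summed to 10880 to 12193 CPM in wild type and 8123 to 8864 CPM in Lmnb1-/- explants. Of the 9 tested, 5 were called lower, where 0.343% of all tested genes were. Fibroblast markers summed to 5294 to 13226 CPM against 4987 to 6093 CPM, with none of 7 called and wild type replicate 2 the highest. Macrophage markers ranged from 74.4 to 312 CPM against 38.9 to 560 CPM. Endothelial markers were at 20.7 to 48.5 CPM in wild type, with Cldn5 at 0, and at 26.4 to 40.4 CPM in Lmnb1-/- explants. Cardiomyocyte markers were at 403 to 787 CPM against 446 to 591 CPM, with Myh7 at 0 throughout. Erythroid markers varied widely within both groups, at 18.8 to 202 CPM against 21.9 to 245 CPM, highest in wild type replicate 4 and Lmnb1-/- replicate 3.

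No Wnt pathway gene was called different in Lmnb1-/- explants. Of the 50 genes, 39 had enough counts to be tested and 0 of these passed an adjusted p of 0.05 in edgeR's quasi-likelihood test, where 0.705% of all 10775 tested genes passed in either direction. DESeq2 called 1, Sfrp1, and limma voom 0. Without adjustment, 9 of the 39 had a p under 0.05, 23.1% of them, against 13.6% of all tested genes. Of the 9, 8 were lower, where 7.43% of all tested genes were lower and 6.2% higher. These counts are from the main fit. Over it and the 18 alternatives, the 9 genes kept such a p in 6 fits (Fzd2) to 19 (Apc). CPM ranges of the groups lay apart for 6 of the 39 (15.4%), near the 13.3% of all tested genes. Of these 6, 1 was higher and 5 lower, where 6.36% of all tested genes lay apart higher and 6.92% lower. Log2 fold changes, Lmnb1-/- over wild type, were below 0 for 29 of the 39 (74.4%), against 52.4% of all tested genes, and their median was -0.21 against -0.02. With no count filter 35 of 49 genes (71.4%) lay below 0, against 50.5% of all genes. By arm the median was -0.06 for 11 canonical genes, -0.11 for 10 noncanonical genes, -0.35 for the 11 frizzled and Dvl genes and -0.41 for 7 antagonists. The antagonist median includes Frzb, which passed the count filter only through wild type. Nkd1 and Sfrp2 reached the filter's cutoff in 4 wild type libraries and 1 Lmnb1-/- library each, and Dkk1 in 1 and 3. The median became -1.06 without Lmnb1-/- replicate 3 and -0.74 with limma voom. Because these are bulk explants, fewer cells of a type and less RNA per cell cannot be told apart. The labels do not say whether replicates came from separate embryos, so p-values measure only the spread between these libraries.

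**Figure D1:**
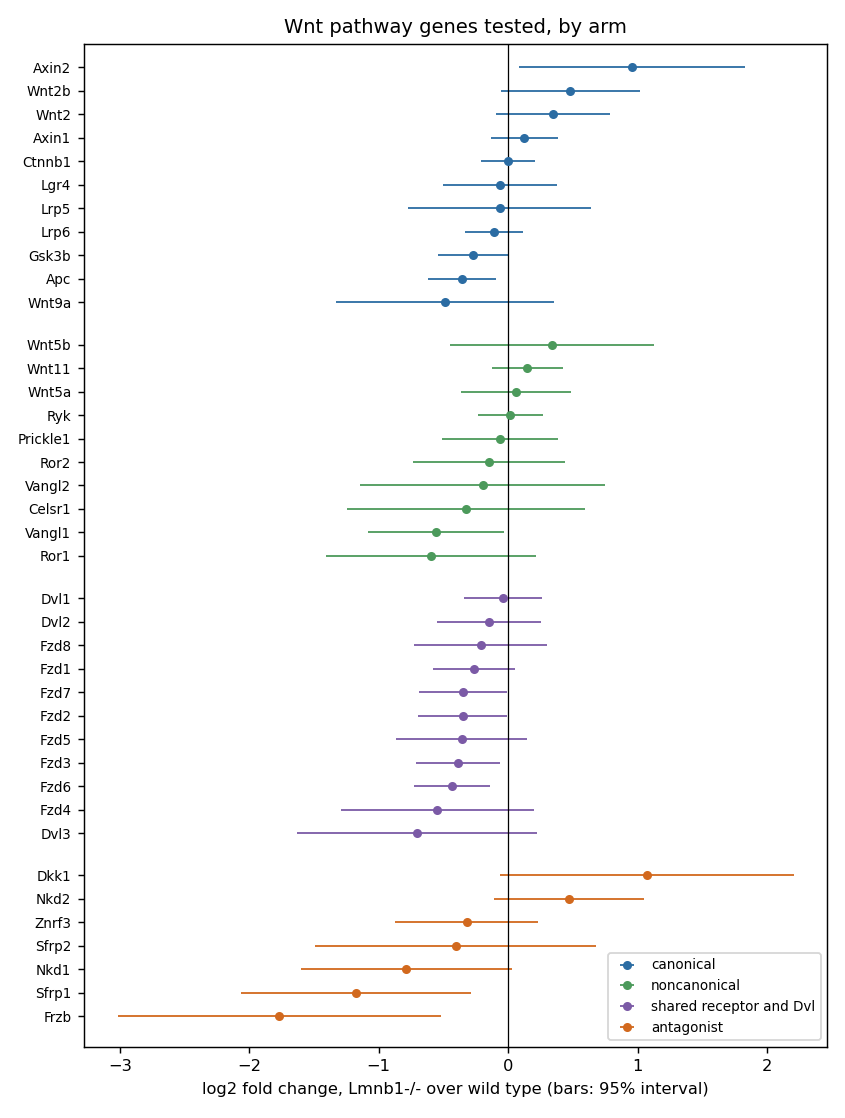
Log2 fold changes (Lmnb1-/- over wild type, horizontal axis) with 95% intervals calculated from the edgeR fit for the 39 tested genes, grouped by arm. All 11 frizzled and Dvl genes lie left of 0, while the canonical genes spread from -0.49 (Wnt9a) to 0.95 (Axin2). Dvl1 moved above 0 in 6 of the 18 alternatives, at most to 0.11 with sex as a covariate.

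Of 6 tested ligands, 5 had log2 fold changes above 0 and 1 below, where 47.6% of all tested genes were above 0, and none passed the test. To compare genes, CPM was divided by exon length in kilobases from GENCODE M21, and on this scale Wnt11, a noncanonical ligand, stood above the other 6 in each of 7 libraries at 36.5 ± 4.40 CPM per kilobase (SD, n = 7). Next came Wnt9a at 14.1 ± 6.44, Wnt2 at 12.8 ± 2.79 and Wnt5a at 12.2 ± 2.51 CPM per kilobase, and the order of Wnt9a over Wnt2, and of Wnt2 over Wnt5a, held in only 4 of 7 libraries each. These 3 cannot be ranked beyond their spread. Wnt2b, at 8.71 ± 2.44 CPM per kilobase, lay below Wnt5a in 6 of 7 libraries. Wnt5b at 2.93 ± 1.01 and Wnt4 at 0.503 ± 0.311 CPM per kilobase were below Wnt2b in all 7, in that order. Wnt4 had 30 counts in all libraries together and was not tested.

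**Figure D2:**
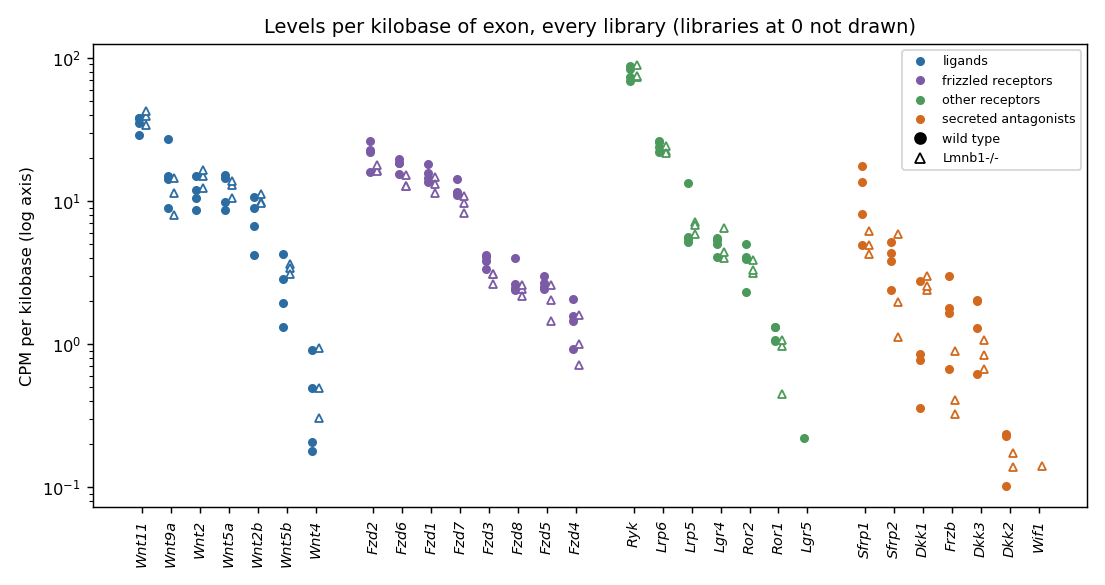
Level per kilobase of exon (log axis) of ligands, frizzled receptors, other receptors and secreted antagonists in every library, with filled circles for wild type and open triangles for Lmnb1-/-. Wnt11 leads the ligands at 36.5 and Ryk the receptors at 78.9 CPM per kilobase, means over 7 libraries, and Sfrp5, at 0 throughout, is not drawn.

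Among the ligands placed in the canonical branch, Wnt2 was at 33.9, 26.9, 23.7 and 19.4 CPM in wild type replicates 1 to 4 and at 33.8, 37.0 and 27.7 CPM in Lmnb1-/- replicates 1 to 3. Wnt2b, its close relative, was at 29.6, 35.1, 13.9 and 22.3 CPM against 32.5, 37.0 and 31.9 CPM. The groups overlapped for both genes, because wild type replicate 1 for Wnt2 and replicate 2 for Wnt2b reached the Lmnb1-/- levels. On the log2 scale the difference was 0.35 (SE 0.20, adjusted p = 0.480 by edgeR) for Wnt2 and 0.48 (SE 0.25, adjusted p = 0.427 by edgeR) for Wnt2b. Wnt9a was at 29.6, 90.9, 49.7 and 47.2 CPM in wild type and at 26.4, 37.6 and 48.3 CPM in Lmnb1-/- explants. Its highest value came from wild type replicate 2 alone, and its log2 fold change of -0.49 (SE 0.37, adjusted p = 0.615 by edgeR) ranged from -0.84 to -0.15 over the alternatives tried.

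The noncanonical ligand Wnt11 was at 126, 136, 104 and 138 CPM in wild type against 123, 141 and 154 CPM in Lmnb1-/- explants. Its groups overlapped, and the 95% interval of its log2 fold change ran from -0.13 to 0.42. Wnt5a, the best studied noncanonical ligand, was at 60.9, 101, 68.9 and 107 CPM against 74.0, 91.4 and 96.6 CPM. Its log2 fold change was 0.06 with an interval of -0.37 to 0.49. The male wild type libraries, replicates 2 and 4, held the 2 highest Wnt5a values, and with sex as a covariate the log2 fold change was -0.26 (adjusted p = 0.462 by edgeR). Wnt5b was at 3.48, 5.17, 7.53 and 11.4 CPM against 9.65, 8.97 and 8.22 CPM. The 3 Lmnb1-/- values fell inside the wild type range, and the log2 fold change stood at 0.34 (SE 0.37, adjusted p = 0.726 by edgeR).

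Frizzled receptors, which receive both kinds of Wnt signal, were each lower on average in Lmnb1-/- explants, although none passed the test. All 8 had negative log2 fold changes, from -0.55 for Fzd4 to -0.21 for Fzd8, with a median of -0.36, where 52.4% of all tested genes were below 0. The same 8 stayed below 0 in each of the 18 alternatives, including both other scalings, with medians from -0.39 to -0.28. These alternatives reuse the same libraries and are not independent. The second count column held at most 5 counts for a frizzled gene (Fzd2), so adding it could hardly change them. Female libraries were all wild type, so sex as a covariate and male libraries only make nearly the same contrast (medians -0.314 and -0.315). Single genes moved further than the median. Fzd8 was at -0.062 without wild type replicate 2 and at -0.026 with the block of neighbouring library numbers. Fzd4 was at -0.88 without Lmnb1-/- replicate 2, -0.28 without Lmnb1-/- replicate 1 and -0.23 with sex as a covariate. The smooth muscle and mural markers given above, 5 of them called lower, were also below 0 in 9 of 9 tested, and their part in the frizzled values was not tested.

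Fzd6 showed the smallest p of the family. It was at 80.9, 67.2, 86.2 and 81.0 CPM in wild type replicates 1 to 4 and at 55.3, 66.7 and 55.5 CPM in Lmnb1-/- replicates 1 to 3. The groups did not overlap, but Lmnb1-/- replicate 2 lay just under wild type replicate 2. As a log2 fold change this was -0.43 (SE 0.14), a drop to 0.741 of the wild type level, with adjusted p = 0.178 by edgeR. Fzd3 was at 42.6, 48.6, 51.6 and 53.1 CPM against 39.6, 39.3 and 33.4 CPM. Every Lmnb1-/- library lay below every wild type library, and the log2 fold change stood at -0.39 (SE 0.15, adjusted p = 0.285 by edgeR). Fzd7 was at 49.6, 51.7, 64.8 and 52.7 CPM against 37.6, 43.7 and 48.8 CPM. Here too the ranges lay apart, by less than 1 CPM at their nearest, and the log2 fold change was -0.35 (SE 0.16, adjusted p = 0.348 by edgeR).

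Fzd2 had the highest level per kilobase of the family, at 19.6 ± 4.03 CPM per kilobase over the 7 libraries (SD), and lay above Fzd6 in 6 of 7. It was at 80.0, 96.1, 83.6 and 58.6 CPM in wild type and at 60.5, 58.9 and 65.3 CPM in Lmnb1-/- explants. Wild type replicate 4 was the lowest of all 7 libraries, so the groups overlapped, and the log2 fold change was -0.35 (SE 0.16, adjusted p = 0.349 by edgeR). Fzd1 was at 60.9, 56.8, 75.7 and 66.2 CPM against 47.9, 61.7 and 55.0 CPM, and Lmnb1-/- replicate 2 lay above 2 of the 4 wild type libraries. Fzd4, a receptor also used by the ligand norrin, was at 13.9, 6.20, 10.5 and 9.70 CPM against 4.82, 10.7 and 6.68 CPM. Its 95% interval, from -1.29 to 0.20, was the widest of the 8. Fzd5 was at 17.4, 20.7, 18.5 and 16.9 CPM against 14.1, 10.1 and 18.0 CPM, and Fzd8 at 14.4, 23.8, 15.8 and 14.8 CPM against 14.5, 12.9 and 15.4 CPM. Both overlapped between groups, and Fzd8 stood out in wild type replicate 2.

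**Figure D3:**
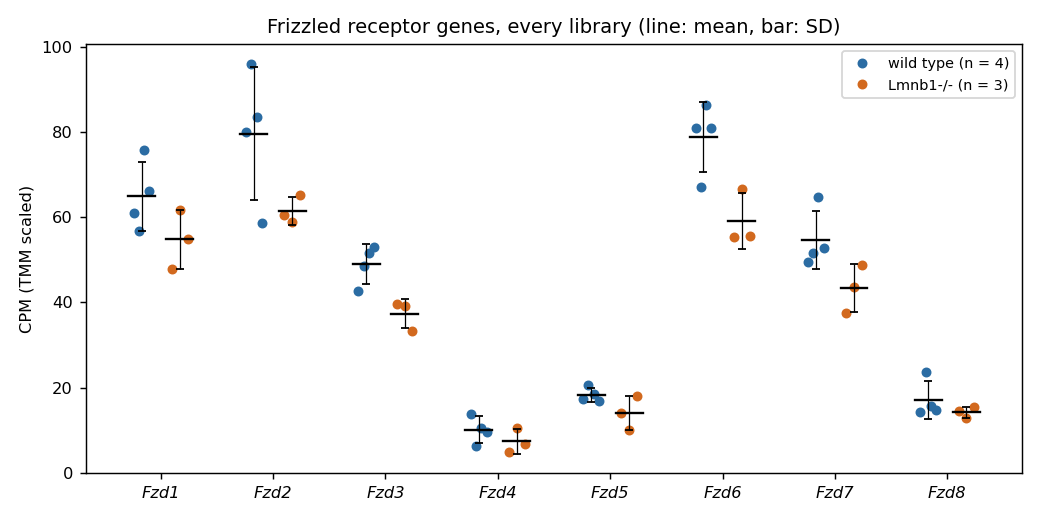
CPM of the 8 frizzled genes in every library, blue for wild type and orange for Lmnb1-/-, with the mean as a line and the SD as a bar. The Lmnb1-/- mean is lower for each gene, and the ranges lie apart for Fzd3, Fzd6 and Fzd7, none of which passed the adjusted test.

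Coreceptors of the canonical branch had smaller log2 fold changes, between -0.11 and -0.06, and none passed. Lrp6 was at 206, 247, 224 and 241 CPM in wild type against 211, 225 and 201 CPM in Lmnb1-/- explants. The log2 fold change was -0.11 with a 95% interval of -0.33 to 0.11. Lrp5 was at 32.6, 80.6, 31.3 and 33.7 CPM against 42.8, 35.3 and 40.6 CPM. Apart from wild type replicate 2 all wild type values lay below the Lmnb1-/- values, and without that replicate the log2 fold change went from -0.07 to 0.30. Lgr4, a receptor for the R-spondins that strengthen Wnt signals, was at 27.8, 20.7, 27.1 and 25.3 CPM against 20.3, 32.5 and 22.1 CPM, with overlapping groups. Lgr5, its relative and a beta-catenin target in other tissues, had a single count in all 7 libraries.

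Downstream of the receptors, the Dvl adaptors did not pass either. Dvl1, the highest of the 3 per kilobase, was at 85.7, 73.4, 110 and 87.3 CPM in wild type and 82.3, 86.9 and 94.0 CPM in Lmnb1-/- explants, with an interval of -0.34 to 0.26. Dvl2 was at 44.4, 50.6, 34.6 and 32.9 CPM against 37.0, 29.2 and 41.1 CPM. Dvl3 was at 7.39, 26.9, 8.28 and 9.28 CPM against 7.72, 6.17 and 7.19 CPM. Its log2 fold change of -0.70 (SE 0.43, adjusted p = 0.499 by edgeR) was set largely by wild type replicate 2 and became -0.22 without that replicate.

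The beta-catenin transcript showed no difference that passed the test, and its interval was narrow. Beta-catenin protein was not measured in these libraries. Ctnnb1 was at 996, 1024, 1126 and 1081 CPM in wild type against 1063, 1102 and 1002 CPM in Lmnb1-/- explants. On the log2 scale the difference was -0.0018 (SE 0.098), with a 95% interval of -0.21 to 0.21. At 292 ± 16.1 CPM per kilobase in wild type (SD, n = 4) it was the most abundant of the 50 genes. Of the destruction complex, Axin1, the scaffold, was at 63.5, 67.2, 66.3 and 72.5 CPM against 72.4, 72.9 and 75.0 CPM. Wild type replicate 4 lay just above Lmnb1-/- replicate 1 and the other wild type libraries below all 3 Lmnb1-/- values, with a log2 fold change of 0.12 and an interval of -0.14 to 0.38. Gsk3b, the kinase that marks beta-catenin for degradation, was at 131, 158, 121 and 116 CPM against 119, 98.7 and 105 CPM. The 2 groups overlapped by 1 library on each side, and the log2 fold change was -0.27 (SE 0.13, adjusted p = 0.380 by edgeR).

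Apc, which holds the destruction complex together, was at 153, 170, 124 and 145 CPM in wild type against 110, 117 and 118 CPM in Lmnb1-/- explants. All Lmnb1-/- libraries lay below all wild type libraries. As a log2 fold change this was -0.36 (SE 0.12, adjusted p = 0.230 by edgeR), with a 95% interval of -0.62 to -0.09. It ranged from -0.45 to -0.28 over the 18 alternatives, and none of them called it.

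TCF and LEF factors, the DNA-binding partners of beta-catenin, were close to the limit of detection, and none of the 4 was tested. Tcf7l2 had the most counts, 52, at 3.04, 3.10, 3.77 and 3.80 CPM in wild type and at 3.86, 4.49 and 1.54 CPM in Lmnb1-/- explants. Tcf7l1 had 23 counts in all, Tcf7 had 13 and Lef1 had 3. With no count filter none of the 4 was called, with Tcf7l2 at -0.06 (SE 0.52, adjusted p = 0.971 by edgeR), and low counts do not show that the factors were absent.

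Noncanonical receptors were led by Ryk, an atypical receptor kinase, at 256, 216, 244 and 201 CPM in wild type against 260, 215 and 219 CPM in Lmnb1-/- explants. The log2 fold change was 0.01 with an interval of -0.24 to 0.27. Per kilobase it exceeded every other receptor gene among the 50, at 78.9 ± 7.86 CPM per kilobase over 7 libraries (SD). The Wnt5a receptor Ror2 was at 16.1, 16.5, 9.41 and 20.2 CPM against 12.9, 15.7 and 13.4 CPM. Its paralog Ror1 was at 6.09, 6.20, 7.53 and 7.59 CPM against 2.57, 5.61 and 6.17 CPM. Lmnb1-/- replicate 1 was the low library, the groups overlapped by a narrow margin, and the log2 fold change was -0.60 (SE 0.38, adjusted p = 0.516 by edgeR).

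Of the planar polarity genes, Vangl1, a membrane protein of the core polarity complex, was at 12.2, 19.6, 15.1 and 17.3 CPM in wild type and at 10.9, 10.7 and 10.3 CPM in Lmnb1-/- explants. The ranges lay apart, and the 3 Lmnb1-/- values were close together. On the log2 scale the difference was -0.56 (SE 0.24, adjusted p = 0.337 by edgeR). Vangl2, its paralog, was at 6.33 ± 2.10 CPM in wild type against 5.26 ± 2.81 CPM in Lmnb1-/- explants (SD, n = 4 and 3). Prickle1, a cytoplasmic polarity protein, was at 36.2 ± 6.27 against 35.3 ± 9.25 CPM, and the atypical cadherin Celsr1 at 5.01 ± 1.29 against 4.15 ± 1.64 CPM. For these 3 the groups overlapped, with log2 fold changes of -0.20, -0.07 and -0.33.

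Feedback genes that beta-catenin commonly induces were split in sign. Of 8 such genes in the list, 4 were tested, none passed, and 2 were above 0 and 2 below. The 2 above 0, Axin2 and Dkk1, reached the count cutoff in 3 Lmnb1-/- libraries but in 0 and 1 wild type libraries. Of the 2 below 0, Nkd1 reached it in 4 wild type libraries and 1 Lmnb1-/- library, and Znrf3 in 4 and 3. The split in sign is therefore not free of the filter. Axin2, the most used readout of canonical signalling, had counts of 5, 4, 8 and 6 in wild type and 15, 13 and 9 in Lmnb1-/- libraries, or 2.17, 4.13, 3.01 and 2.53 CPM against 4.82, 7.29 and 4.62 CPM. The ranges lay apart, and the log2 fold change stood at 0.95 (SE 0.41, adjusted p = 0.325 by edgeR). Axin2 passed the count filter, 4.42 CPM in 3 libraries, only through the Lmnb1-/- libraries, so it had to differ in order to be tested. With no count filter its adjusted p was 0.470 by edgeR.

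Dkk1, a secreted inhibitor that blocks Lrp5 and Lrp6, was at 0.870, 2.07, 1.88 and 6.75 CPM in wild type and at 5.79, 7.29 and 6.17 CPM in Lmnb1-/- explants. Wild type replicate 4 lay among the Lmnb1-/- libraries and the other 3 wild type libraries well below. As a log2 fold change this was 1.07 (SE 0.53, adjusted p = 0.393 by edgeR), and it was 2.02 without wild type replicate 4 and 0.33 with sex as a covariate. Only 1 wild type library reached the count cutoff for Dkk1, so its 3 Lmnb1-/- libraries took it through the filter. With no count filter its adjusted p was 0.413 by edgeR. Nkd1, which binds Dvl and dampens the signal, was at 4.78, 8.27, 9.41 and 6.75 CPM against 3.22, 3.93 and 5.65 CPM. Its log2 fold change was -0.79 (SE 0.38, adjusted p = 0.384 by edgeR), opposite in sign to that of its paralog Nkd2. Nkd2 was at 10.004, 7.23, 13.9 and 10.1 CPM against 12.9, 12.9 and 19.0 CPM, 0.47 on the log2 scale (SE 0.27, adjusted p = 0.471 by edgeR). Znrf3, a ubiquitin ligase that removes frizzled receptors from the surface, was at 13.05, 9.30, 11.3 and 13.5 CPM against 11.3, 8.41 and 8.74 CPM, with overlapping groups. Its relative Rnf43 had 2 counts in all, both in Lmnb1-/- replicate 1.

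Secreted frizzled-related proteins, which bind Wnts outside the cell, include the genes with the most negative log2 fold changes of the 39 tested, Frzb and Sfrp1. Neither passed, and Frzb was tested only because wild type libraries took it through the count filter. Sfrp1 was at 59.2, 21.7, 35.4 and 76.3 CPM in wild type replicates 1 to 4 and at 18.7, 26.9 and 21.6 CPM in Lmnb1-/- replicates 1 to 3. Wild type replicate 2 lay inside the Lmnb1-/- range and the other 3 wild type libraries above it. The log2 fold change was -1.18 (SE 0.39), or 2.26-fold lower, with adjusted p = 0.251 by edgeR. DESeq2 called it, at -1.14 (adjusted p = 0.0353). A block for libraries of neighbouring numbers, which the files carry and the labels do not explain, also called it, at -1.66 (adjusted p = 0.00126 by edgeR). Within those number groups the log2 CPM difference was -1.62 between Lmnb1-/- replicate 1 and wild type replicate 1 and -1.63 between Lmnb1-/- replicates 2 and 3 and wild type replicate 4. The other group, which holds wild type replicates 2 and 3 and no Lmnb1-/- library, gives no difference of its own. The groups were formed here by closeness of the numbers: 3 and 4, 8 and 9, and 13, 15 and 16. Each difference rests on 1 wild type library, and these were the 2 highest for Sfrp1, at 59.2 and 76.3 CPM. The 2 differences therefore do not replicate the change, and the block's call leans on which wild type libraries share a group with Lmnb1-/- libraries.

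Frzb, also known as Sfrp3, was at 5.65, 5.17, 9.41 and 2.11 CPM in wild type and at 1.29, 2.80 and 1.03 CPM in Lmnb1-/- explants. Wild type replicate 4 lay below Lmnb1-/- replicate 2, so the groups overlapped. On the log2 scale the difference was -1.77 (SE 0.58), or 3.40-fold lower, with adjusted p = 0.203 by edgeR, from 48 counts in wild type and 11 in Lmnb1-/- libraries. Having passed the filter through wild type only, Frzb had to differ to be tested. With sex as a covariate its log2 fold change was -0.93 (adjusted p = 0.571 by edgeR). Sfrp2 was at 4.78, 10.3, 8.66 and 7.59 CPM against 2.25, 3.93 and 11.8 CPM. It reached the count cutoff in 4 wild type libraries and 1 Lmnb1-/- library. The Lmnb1-/- libraries spanned the whole wild type range, with replicate 3 the highest of all 7, and the log2 fold change was -0.41 (SE 0.50). Sfrp5 had no count in any library, which allows up to 0.965 to 3.10 CPM per library for counting error alone. Fibroblast markers had log2 fold changes below 0 for 5 of 7, with summed levels of 5294 to 13226 CPM in wild type and 4987 to 6093 CPM in Lmnb1-/- explants, and their part in these values was not tested.

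**Figure D4:**
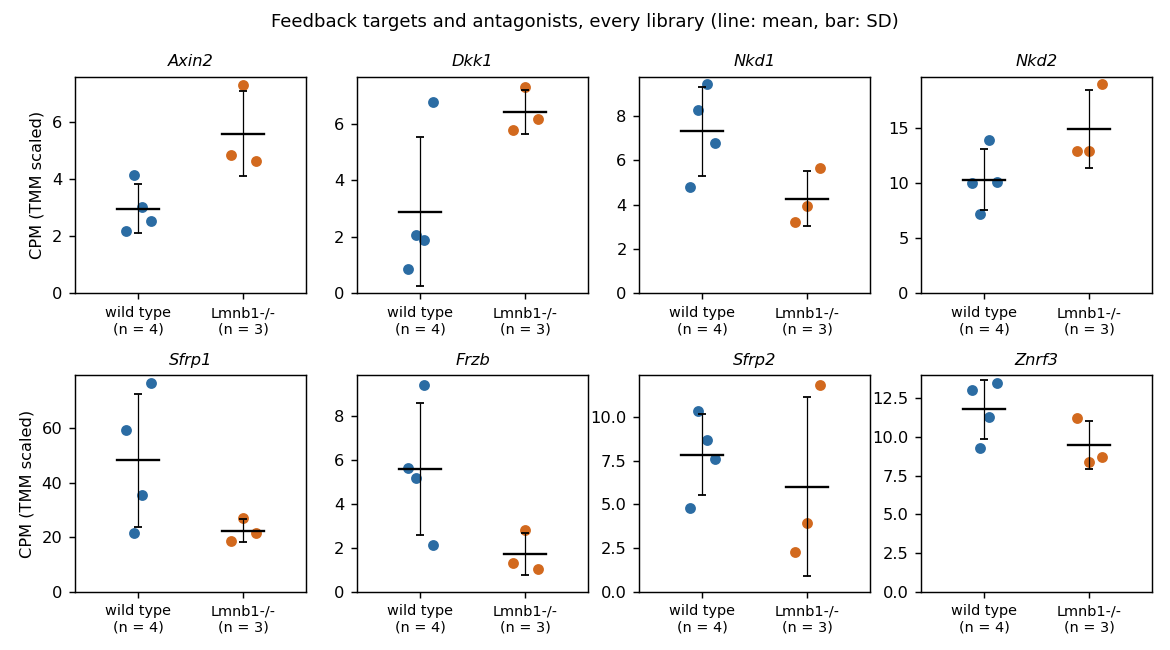
CPM in every library of the feedback genes Axin2, Dkk1, Nkd1 and Znrf3 and of the antagonists Nkd2, Sfrp1, Frzb and Sfrp2, blue for wild type and orange for Lmnb1-/-, with the mean as a line and the SD as a bar. Each panel has its own axis from 0, and the ranges lie apart for Axin2 only.

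Remaining antagonists were scarce. Dkk3, a divergent member of its family, had 46 counts in wild type and 19 in Lmnb1-/- libraries, or 4.99 ± 2.25 and 2.88 ± 0.677 CPM (SD, n = 4 and 3). Wild type replicate 1 stood exactly at the cutoff and Dkk3 was left out by the filter, and with no filter its log2 fold change was -0.90 (SE 0.48, adjusted p = 0.528 by edgeR). Dkk2 had 8 counts in all and Wif1, a secreted Wnt-binding inhibitor, had 1.

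Single libraries shaped several of these values. Of the 39 tested genes, 12 (30.8%) had their highest value in wild type replicate 2, near the 24.2% of all tested genes. In that library 2 (5.13%) had their lowest value, against 21.4% of all tested genes. Wild type replicate 4 was highest for 9 (23.1%), against 12.02%, and wild type replicate 1 for 1 (2.56%), against 13.7%. Lmnb1-/- replicate 1 was lowest for 13 (33.3%), against 14.5%. With 29 of the 39 log2 fold changes below 0, highs in wild type and lows in Lmnb1-/- libraries partly restate that direction. Wnt9a, Lrp5, Dvl3 and Fzd8 were each highest in wild type replicate 2, the library with the fewest counts and the highest fibroblast marker sum. The part of depth or of these markers in those values was not tested.

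**Figure D5:**
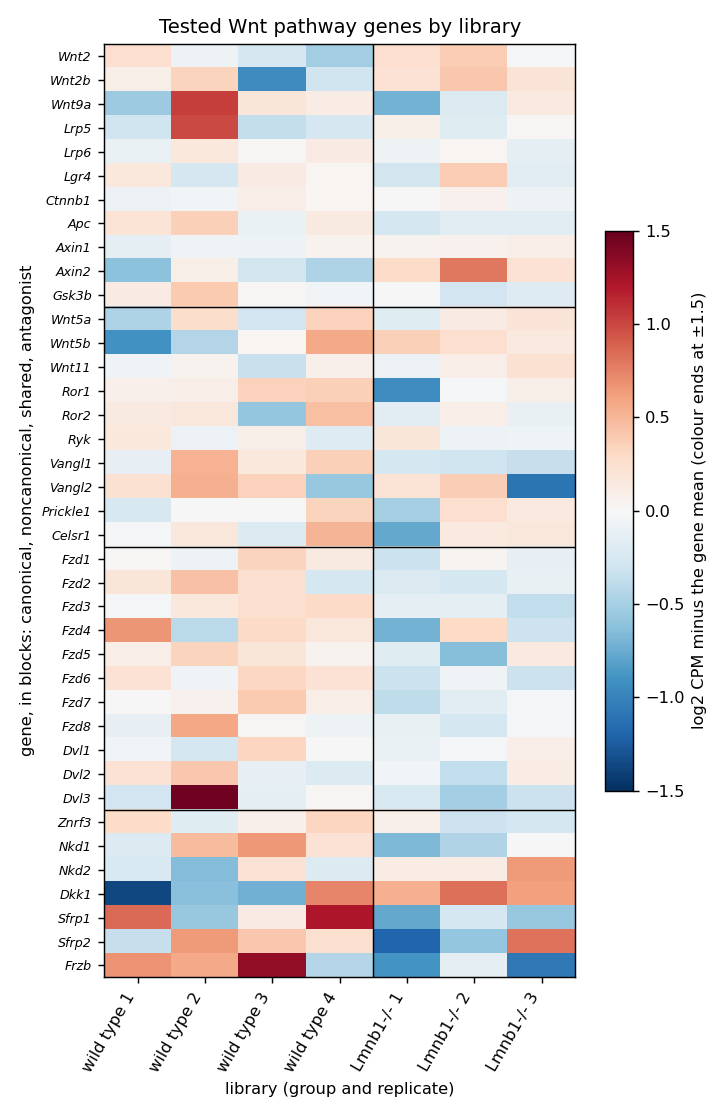
Log2 CPM minus the mean of each gene (colour, ends at ±1.5) for the 39 tested genes in the 7 libraries, in blocks of canonical, noncanonical, shared and antagonist genes. The frizzled rows are mostly above their mean in wild type and below it in Lmnb1-/- libraries, whereas Wnt9a, Lrp5 and Dvl3 are high in wild type replicate 2 alone.

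The wider pathway was read from 5 further lists with 132 genes found in the tables, of which 81 were tested. In edgeR's quasi-likelihood test 1 of the 81 was called higher and 0 lower, against 0.362% higher and 0.343% lower among all tested genes. Without adjustment, 17 of the 81 had a p under 0.05, 5 higher and 12 lower. Of all tested genes 13.6% did, 6.2% higher and 7.43% lower. The called gene was Edn1, which encodes the peptide endothelin 1 and is a reported beta-catenin target in other cells. Edn1 was at 26.1, 26.9, 29.7 and 33.7 CPM in wild type and at 53.7, 56.1 and 42.6 CPM in Lmnb1-/- explants, with ranges apart. As a log2 fold change this was 0.79 (SE 0.16, adjusted p = 0.0481 by edgeR). The call sat at the threshold: it was lost on leaving out any library but wild type replicate 1 (adjusted p = 0.0678 to 0.220 by edgeR), and in 6 of the 11 other alternatives, sex as a covariate among them (0.163). None of the other 17 tested genes of the target list passed. Of its 18 tested genes, 9 were below 0, against 52.4% of all tested genes. Without adjustment, 6 of the 18 had a p under 0.05, 4 higher and 2 lower, against 13.6% of all tested genes. CPM ranges lay apart for 3 higher and 1 lower, against 6.36% and 6.92% of all tested genes. The list's largest changes were in Ccnd1, at 59.0 ± 13.1 against 108 ± 34.9 CPM (SD, n = 4 and 3), and Fn1. These stood at 0.86 and -0.81 on the log2 scale (adjusted p = 0.160 and 0.343 by edgeR).

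Ligand supply genes outside the list were few. Of 19 listed, 3 were tested. Rspo1, which encodes an R-spondin and is a marker of mesothelium, was at 25.7, 51.7, 32.0 and 35.4 CPM in wild type and at 14.5, 17.4 and 22.6 CPM in Lmnb1-/- explants. The ranges lay apart, and the log2 fold change stood at -0.96 (SE 0.24, adjusted p = 0.0952 by edgeR). Rspo1 was called by DESeq2 (0.0411), by edgeR with no count filter (0.0144) and by edgeR without wild type replicate 1 (0.0313). The other 15 of 18 alternatives did not call it. Its adjusted p was 0.346 without Lmnb1-/- replicate 1 and 0.156 with the block of neighbouring library numbers, both by edgeR. Wnt16 was low, with 8, 8, 15 and 23 counts against 0, 5 and 3, -2.38 on the log2 scale (SE 0.70, adjusted p = 0.152 by edgeR). Like Frzb, it passed the count filter only through wild type libraries, so it had to differ to be tested. Wls, the carrier that brings Wnts to the surface, was at 599 ± 79.7 against 635 ± 74.2 CPM (SD, n = 4 and 3), a log2 fold change of 0.08 with an interval of -0.18 to 0.35.

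For the 3 lists that follow, the share of all tested genes below 0 was 52.4%. Among 25 tested noncanonical and polarity genes, 18 lay below 0 and none passed. Dact1 and Dact3, which encode Dvl-binding regulators, were at 25.0 ± 2.79 against 15.6 ± 0.759 CPM and at 42.0 ± 6.30 against 26.9 ± 6.42 CPM (SD, n = 4 and 3). Their ranges lay apart, at -0.67 for Dact1 and -0.68 for Dact3 on the log2 scale (adjusted p = 0.146 and 0.147 by edgeR). Neither Invs (log2 fold change -0.38) nor Daam2 (-0.39) passed. Among 26 tested beta-catenin regulators, 17 lay below 0 and none passed, with the corepressor gene Tle1 at -0.59, Ctbp2, also a corepressor, at 0.35, Tnks at -0.25 and Crebbp at -0.44. Of 9 tested receptors and inhibitors, 7 lay below 0 and none passed. Gpc6, a glypican, was at -0.65, Cby1 at 0.31, Apcdd1 at -0.23 and the glypican Gpc3 at -0.20.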

How the data were processed

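The 7 libraries are epicardial explants of either genotype. Extraction used a PicoPure kit and library making the TruSeq RNA v2 kit, per the labels' protocols, and that kit does not mark strand. TopHat, edgeR and the mm9 build appear among the submitters' processing notes; the annotation and counting program are not given in the sources used here. The deposited tables hold 2 unnamed columns of whole-number counts per gene row, with no normalization recorded per the file headers. The first column was used, and the second, 16.6 to 19.6% of both, entered 1 alternative. Library totals were 1024898 to 3066936 counts.

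Genes were filtered with filterByExpr, which asks for 4.42 CPM in 3 libraries, scaled by TMM and tested with edgeR 4.0.16 (limma 3.58.1, R 4.3.3) by the quasi-likelihood test with robust dispersion and no covariate. The Benjamini-Hochberg threshold was 0.05 over 10775 genes. SE is the size of the log2 fold change over the square root of F. The 95% interval is the log2 fold change plus or minus this SE times the t quantile at the test's degrees of freedom. Levels per kilobase used exon lengths of GENCODE M21 (GRCm38). Log2 CPM used a prior count of 2.

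The members and lists were chosen with earlier results of these data known. Genes given in every library were chosen by p, ranges, level or size of change within each arm, and the other tested members were added after their values were seen to account for all. In the further lists, called genes or else the 4 of smallest p were named. From the target list, Ccnd1 and Fn1 were added for the size of their change after values were seen. Alternatives were RLE factors, unscaled totals, no filter, 1 CPM in 3 libraries, DESeq2 1.42.0, limma voom, a replicate block, sex as a covariate, male libraries only, a block of neighbouring library numbers read from the file names, the sum of both columns, and each library left out.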

Additional observations from a re-analysis of the deposited data

Results flagged for a closer look

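In 3 genes a single wild type library lay far from the other 3, and in each case it was wild type replicate 2. Lrp5 was at 80.6 CPM there, with a gap to the next library of 0.950 of the whole range. Fzd8 was at 23.8 CPM, with a gap of 0.845 of the range, and Dvl3 at 26.9 CPM, with a gap of 0.903. Each gap was above the limit of Dixon's test for 4 samples. Chance alone flags about 1 in 20 groups, and 55 genes were looked at.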

How the results depend on the processing

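No Wnt pathway gene was called higher in any of the 18 alternatives. The number called lower was 0 except for 1 (Sfrp1) with DESeq2 and 1 (Sfrp1) with the block of neighbouring library numbers, and it was 0 on leaving out each library. Over all genes, 37 were called lower and 39 higher. These became 97 and 83 with no count filter, 100 and 76 with DESeq2, 11 higher with sex as a covariate, 66 lower within male libraries and 17 lower with both columns summed. Leaving out single libraries gave 1 to 166 lower and 2 to 113 higher. The counts lower and higher were 166 and 113 without wild type replicate 1, 17 and 23 without replicate 2, 1 and 3 without replicate 3, and 12 and 16 without replicate 4. They were 1 and 3 without Lmnb1-/- replicate 1, 1 and 2 without replicate 2, and 4 and 9 without replicate 3. The antagonist median of -0.41 was -0.74 with limma voom and -1.06 to -0.34 on leaving out each library, -1.06 being without Lmnb1-/- replicate 3. The frizzled and Dvl median of -0.35 was -0.25 with the block of neighbouring numbers. Canonical and noncanonical medians moved by less than the spread between libraries. The cause of these changes was not tested. Some alternatives left genes below the count filter, with no value: 5 of 18 for Axin2 and 4 of 18 for Frzb and for Wnt16, and 1 of 18 for Celsr1. DESeq2 gave no adjusted p for Axin2, Frzb, Dkk1 and Dvl3, among other genes of low counts.

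Signs changed as follows. Ctnnb1 was 0.00072 with RLE factors, 0.045 with unscaled totals, 7.6e-05 with DESeq2, 0.0037 with sex as a covariate, 0.0018 within male libraries, 0.018 with the number block and 0.0013 with both columns summed. Dvl1 was 0.0020 with unscaled totals, 0.11 with sex as a covariate, 0.10 within male libraries and 0.0041 with the number block. Lrp5 was 0.11 with limma voom and 0.27 with the number block. With sex as a covariate and within male libraries, Lgr4 was 0.067 and 0.066, Wnt5a -0.26 and -0.27, Wnt5b -0.00091 and -0.00036, and Vangl2 0.052 and 0.036. Vangl2 was 0.19 with the number block. On leaving out each library, ranges that crossed 0 were -0.53 to 0.035 for Celsr1, -0.033 to 0.041 for Ctnnb1, -0.11 to 0.080 for Dvl1, -0.34 to 0.025 for Gpc3, -0.28 to 0.085 for Lgr4, -0.20 to 0.30 for Lrp5, -0.21 to 0.16 for Prickle1, -0.35 to 0.041 for Ror2, -0.079 to 0.072 for Ryk, -1.35 to 0.069 for Sfrp2, -0.44 to 0.16 for Vangl2, -0.0079 to 0.16 for Wls and -0.073 to 0.23 for Wnt5a.

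Correlations of deviations from the group mean were 0.12, -0.12 and 0.04 for same-numbered libraries, and -0.19 to 0.20 for the other pairs. Centring 3 libraries per group on their mean ties these values together. They cannot decide whether the replicate numbers pair the libraries. With the replicate block, on replicates 1 to 3 of both groups, 0 Wnt pathway genes were called, and 47 genes in all were lower and 49 higher. Under this block Ctnnb1 was 0.020, Ror2 0.025, Prickle1 0.048, Gpc3 0.016 and Ryk -0.036.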
